A study of Mus musculus with 14 samples.

Results

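The cerebellar cortex is divided into parasagittal stripes of Purkinje cells, and 10 genes known to differ between zebrin-positive and zebrin-negative stripes were followed here: Aldoc, Plcb3, Kctd12, Sphk1, Plcb4, Ebf2, Nefh, Hspb1, Gap43 and Abat. They were listed by name for their stripe patterns, and all 10 were found among the 24100 genes of the count table. Aldoc (zebrin II itself), Plcb3, Kctd12 and Sphk1 were taken as genes of zebrin-positive cells. Plcb4, Ebf2 and Nefh were taken as genes of zebrin-negative cells. Hspb1, Gap43 and Abat were listed as having another stripe pattern and were given no side.

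RNA was sequenced from cerebella of mice at postnatal day 21 that were either wild type (WT) or knockout (KO) for Astn2, which encodes the membrane protein astrotactin 2. Every mouse, WT or KO, carried the transgene Tg(Pcp2-L10a-EGFP), which tags the ribosomal protein L10a with EGFP under the Purkinje cell promoter Pcp2. Tagged ribosomes were captured with antibodies against GFP (translating ribosome affinity purification, TRAP), and a portion of the homogenate kept before capture served as input, standing for whole cerebellum. There were 4 input WT libraries (1 female, 3 male), 3 input KO (2 female, 1 male), 3 TRAP WT (1 female, 2 male) and 4 TRAP KO (2 female, 2 male). The transgene is expressed in Purkinje cells at large, so stripes were pooled in every library and no value below is a level within a stripe.

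Zebrin-positive and zebrin-negative Purkinje cells alternate in a pattern that is the same from animal to animal, and the stripes receive different climbing fibre and mossy fibre inputs. The molecular difference includes signalling through phospholipase C beta, the enzyme that releases inositol trisphosphate downstream of G protein-coupled receptors, and Plcb3 and Plcb4 encode isoforms of it found in complementary stripes. Zebrin-negative cells fire at higher rates than zebrin-positive ones, and the transcription factor Ebf2 restrains the zebrin-positive programme in a subset of zebrin-negative cells.

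The sequence just upstream of a start site is shown for the 4 genes on which the comparisons below turn most, the zebrin-positive Aldoc, Plcb3 and Kctd12 and the zebrin-negative Plcb4. Each line is the 250 bases before an annotated start, 5′ to 3′ on the strand of the gene, from RefSeq (GRCm38.p6). Capitals mark a GC box (GGGCGG on either strand) or an ROR half-site (AGGTCA on either strand), the element read by the Purkinje cell factor encoded by Rora. The intervals are chr11:78322823-78323072 (plus strand) for Aldoc, chr19:6969815-6970064 (minus strand) for Plcb3, chr2:135659297-135659546 and chr2:135764588-135764837 (both plus strand) for 2 starts of Plcb4, and chr14:102982638-102982887 (minus strand) for Kctd12.
Aldoc: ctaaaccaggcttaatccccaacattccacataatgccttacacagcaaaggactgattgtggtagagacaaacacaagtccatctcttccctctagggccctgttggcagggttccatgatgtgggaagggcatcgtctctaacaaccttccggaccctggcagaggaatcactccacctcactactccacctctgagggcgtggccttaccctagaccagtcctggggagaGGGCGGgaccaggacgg
Plcb3: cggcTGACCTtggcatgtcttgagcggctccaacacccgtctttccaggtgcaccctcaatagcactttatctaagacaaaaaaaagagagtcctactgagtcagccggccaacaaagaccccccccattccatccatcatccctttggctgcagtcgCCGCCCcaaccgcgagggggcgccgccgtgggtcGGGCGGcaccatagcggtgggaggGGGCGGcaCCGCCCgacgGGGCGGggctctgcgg
Plcb4, upstream start: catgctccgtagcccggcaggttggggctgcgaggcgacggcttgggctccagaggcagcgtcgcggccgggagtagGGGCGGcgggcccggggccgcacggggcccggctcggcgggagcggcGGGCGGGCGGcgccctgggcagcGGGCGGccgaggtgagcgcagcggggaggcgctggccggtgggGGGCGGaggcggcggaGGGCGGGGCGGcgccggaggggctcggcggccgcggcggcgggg
Plcb4, downstream start: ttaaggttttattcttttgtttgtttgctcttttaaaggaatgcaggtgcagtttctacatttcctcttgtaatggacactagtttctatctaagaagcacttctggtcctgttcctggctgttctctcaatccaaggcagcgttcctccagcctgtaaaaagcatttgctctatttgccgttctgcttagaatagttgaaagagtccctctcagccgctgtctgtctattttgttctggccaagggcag
Kctd12: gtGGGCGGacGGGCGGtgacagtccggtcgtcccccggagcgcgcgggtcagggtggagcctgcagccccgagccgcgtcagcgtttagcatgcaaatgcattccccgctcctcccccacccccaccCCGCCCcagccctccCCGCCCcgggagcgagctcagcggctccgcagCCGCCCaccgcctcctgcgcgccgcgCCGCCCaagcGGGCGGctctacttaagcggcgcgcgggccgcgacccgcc
The Plcb3 window held 5 GC boxes and 1 ROR half-site. It lies inside the annotated span of its gene (chr19:6953708-6975006), and both Plcb4 windows lie inside theirs (chr2:135658603-136014602), so these windows precede internal starts. Of the Plcb4 windows, the upstream one held 7 GC boxes at a GC content of 85.2%, and the other held 0 at 42.8%. The Kctd12 window held 7 GC boxes. The Aldoc window shown held 1, and the window of a second annotated Aldoc start, not printed, held 0. Among all 32851 upstream windows of the table, 32.7% held a GC box, 14.02% an ROR half-site and 12.4% the letters TATAAA, and the median GC content was 52.4%. The table matched 6 of the 10 genes (Aldoc, Plcb3, Plcb4, Kctd12, Hspb1 and Sphk1) with 12 windows, of which 5 held a GC box, 3 an ROR half-site and 1 TATAAA. Of the 3 windows with an ROR half-site, the pair from Sphk1 overlap and hold the same one. The palindromic motif of the EBF factors was found in 0 of the 12 windows and in 0.779% of all windows. These matches are a description of the letters and not of binding.

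Totals per library were 25.1 to 39.1 M counts (M, 1e6) in input WT, 36.4 to 54.2 M in input KO, 18.8 to 32.9 M in TRAP WT and 21.4 to 35.7 M in TRAP KO. Expression level is stated in CPM, the count per 1e6 after scaling by trimmed mean of M-values (TMM). Astn2 was at 87.8 to 104 CPM in input WT and 116 to 145 CPM in TRAP WT, and at no more than 2.10 CPM in any KO library. The summed level of 10 Purkinje cell markers was 5903 to 6333 CPM in input WT and 78376 to 86696 CPM in TRAP WT. The corresponding sums for 8 granule cell markers were 4764 to 4935 and 886 to 1206 CPM, and for 10 markers of Bergmann glia and astrocytes 1400 to 1989 and 396 to 496 CPM. No marker of any of these lists was at 0 in every library of a group. Libraries TRAP WT 3 and TRAP KO 4 stood apart from the other 5 TRAP libraries for several stripe genes, and the values without them are given where they matter.

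Most of the 10 genes, on both the zebrin-positive and the zebrin-negative side, were higher on Purkinje cell ribosomes than in whole cerebellum. Comparing TRAP with input within WT, all 4 zebrin-positive genes rose, by 2.89-fold (Kctd12) to 9.56-fold (Sphk1). Of the zebrin-negative genes, Ebf2 (4.25-fold) and Nefh (3.75-fold) rose more than Kctd12 by point estimate, and Plcb4 did not pass the threshold. Of the 3 other genes, Hspb1 (3.74-fold) and Abat (1.53-fold) rose and Gap43 fell. Tests were edgeR's quasi-likelihood test with Benjamini-Hochberg adjustment over all genes, and a gene was called at an adjusted p under 0.05. By this rule 8 of the 10 genes were higher and 1 lower in TRAP WT, where 37% of the 16042 genes tested were higher and 38.5% lower, 75.5% in either direction. Within KO, 7 were higher and 1 lower, where 36.3% and 39.6% of all genes were, 75.9% in either direction. The median log2 fold change over the 10 genes was 1.90 in WT and 1.83 in KO, beside -0.09 and -0.11 over all genes tested. Without TRAP WT 3 and TRAP KO 4, a choice made after seeing the data, 9 were called in WT and 8 in KO, as many as with them. In both genotypes 8 genes had every TRAP library above every input library and 1 had every one below, where 34.2% and 38.3% of all genes did so in WT and 37.3% and 40.8% in KO. TRAP libraries hold ribosome-bound RNA and input total RNA, so cell-type enrichment and ribosome loading cannot be told apart, nor can fewer cells of a type and less RNA per cell.

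**Figure D1:**
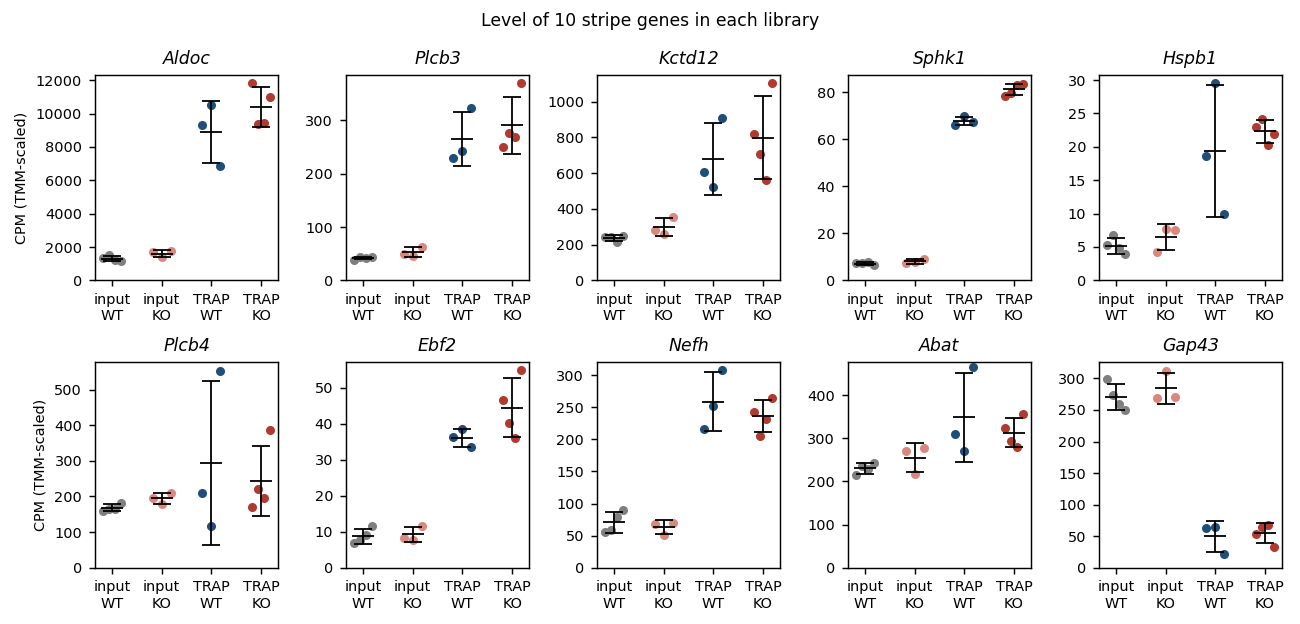
CPM (TMM-scaled, linear axis from 0) of the 10 stripe genes in each of the 14 libraries, by group; points are libraries and bars are mean ± SD. 7 of the genes sit higher in every TRAP library than in every input library of both genotypes, Gap43 sits lower in all of them, and the fractions overlap for Plcb4 and, when both genotypes are pooled, for Abat.

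Aldoc encodes aldolase C, a glycolytic enzyme of Purkinje cells and astroglia and the antigen that defines the zebrin stripes. Its level in input WT libraries 1 to 4 was 1331, 1496, 1225 and 1184 CPM, and in TRAP WT libraries 1 to 3 it was 9308, 10501 and 6855 CPM. In KO, input libraries 1 to 3 were at 1681, 1381 and 1760.3 CPM and TRAP libraries 1 to 4 at 11813, 9399, 9457 and 10977 CPM. Every TRAP library lay above every input library. The rise was 2.77 ± 0.16 (SE) on the log2 scale in WT (adjusted p = 2.94e-09, edgeR) and 2.72 ± 0.17 in KO (adjusted p = 9.51e-09). The astroglial markers, which mark another cell type that makes Aldoc, all fell between input and TRAP WT, with log2 fold changes from -2.66 to -0.99, and their part in the level of Aldoc was not tested. Per kilobase of transcript, Aldoc made up 40.5% ± 3.60 (SD, n = 4) of the summed aldolase RNA in input WT and 78.6% ± 2.28 (SD, n = 3) in TRAP WT. Aldoa, the general aldolase, made up most of the rest, 21.4% ± 2.28 in TRAP WT, and rose by 0.34 ± 0.14 on the log2 scale (adjusted p = 0.0440).

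Plcb3 and Plcb4, the phospholipase C beta isoforms of complementary stripes, behaved differently. Plcb3 was at 38.8, 43.9, 42.7 and 42.9 CPM in input WT and 228, 243 and 323 CPM in TRAP WT. In KO it was at 49.4, 45.3 and 62.9 CPM in input and 249.6, 275, 269.5 and 369 CPM in TRAP. The groups did not overlap, and Plcb3 rose by 2.68 ± 0.13 (adjusted p = 7.83e-10) in WT and 2.45 ± 0.14 (adjusted p = 4.32e-09) in KO.

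Plcb4 was at 158, 165, 166 and 182 CPM in input WT, but at 208, 118 and 554 CPM in TRAP WT. In KO it was at 196, 179.8 and 211 CPM in input and 170.4, 222, 196 and 387 CPM in TRAP. TRAP libraries thus fell on both sides of the input libraries in both genotypes. The log2 difference was 0.81 ± 0.37 in WT (adjusted p = 0.0596) and 0.25 ± 0.38 in KO (adjusted p = 0.563), neither past the threshold. The WT value rested on TRAP WT 3: without it the log2 difference was -0.02, and without TRAP WT 2 it was 1.15 with an adjusted p of 0.00131. With offsets for transcript length, chosen after seeing the data, it was 1.34 (adjusted p = 0.00302), and with library totals as the scale -0.01. With all libraries kept, Plcb4 in WT was also called by DESeq2's Wald test (0.80, adjusted p = 0.0407). The same held for edgeR's test with no filter (0.80, adjusted p = 0.0422).

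Per kilobase, Plcb3 over Plcb4 was 0.307 ± 0.0162 (SD, n = 4) in input WT and 0.328 ± 0.0331 (SD, n = 3) in input KO. In TRAP it was 1.53 ± 0.921 (SD, n = 3) in WT and 1.54 ± 0.273 (SD, n = 4) in KO. Every TRAP library had a higher ratio than every input library, the lowest being 0.714 in TRAP WT 3. Plcb4 was 64.0% ± 1.08 of the summed phospholipase C beta RNA in input WT and 40.4% ± 14.6 in TRAP WT, and Plcb3 19.7% ± 0.714 and 53.0% ± 13.2. The other isoforms were minor in TRAP WT, with Plcb1 at 6.64% ± 1.38. Of the 14 other genes listed for the phospholipase C pathway and tested in WT, 11 rose and 0 fell, and in KO 12 rose and 2 fell (Plcb1 at -0.35 and Plcb2 at -1.81), beside 37% and 36.3% of all genes that rose and 38.5% and 39.6% that fell. The highest in WT was Inpp5a, an inositol phosphate phosphatase, at 3.84 ± 0.11. The lowest was Plcb2 at -1.09 ± 0.61, which did not pass (adjusted p = 0.118).

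Kctd12, an auxiliary subunit of GABA-B receptors, was at 246, 241, 214 and 251 CPM in input WT and 609, 525 and 908 CPM in TRAP WT. In KO it was at 284, 257 and 352 CPM in input and 821, 707, 562 and 1108 CPM in TRAP. The fractions did not overlap, and the rise was 1.53 ± 0.21 in WT (adjusted p = 1.88e-05) and 1.43 ± 0.22 in KO (adjusted p = 5.84e-05). With offsets for transcript length it was 2.20 in WT, and with library totals 0.71. Kctd12 made up 72.5% ± 1.71 of the RNA of its GABA-B auxiliary family in input WT and 95.8% ± 2.04 in TRAP WT, as Kctd8 fell (-1.72 ± 0.19) and Kctd12b fell (-2.33 ± 0.23). The receptor subunits themselves rose, Gabbr1 by 2.38 ± 0.18 and Gabbr2 by 1.97 ± 0.38.

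Sphk1, the kinase that makes sphingosine 1-phosphate, was the most enriched of the 10 genes. It was at 6.4 to 7.8 CPM in the 4 input WT libraries and 66.3, 69.9 and 67.4 CPM in TRAP WT. In KO it was at 7.3, 7.7 and 9.3 CPM in input and 78.5, 79.9, 83.1 and 83.6 CPM in TRAP. The rise was 3.26 ± 0.10 in WT (adjusted p = 3.93e-11) and 3.33 ± 0.11 in KO (adjusted p = 1.57e-10). Its share of the 2 sphingosine kinases was 32.7% ± 1.80 in input WT and 71.9% ± 2.03 in TRAP WT, with Sphk2 rising by 0.86 ± 0.11. The sphingosine phosphate receptors S1pr1 (-2.34 ± 0.20) and S1pr3 (-2.29 ± 0.32) fell in WT.

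Ebf2, the transcription factor of zebrin-negative cells, was at 6.8, 7.7, 9.0 and 11.5 CPM in input WT and 36.3, 38.5 and 33.6 CPM in TRAP WT. It was at 8.3, 7.7 and 11.7 CPM in input KO and 46.7, 40.2, 36.1 and 54.8 CPM in TRAP KO, above every input library. The rise was 2.09 ± 0.18 in WT (adjusted p = 1.49e-07) and 2.26 ± 0.19 in KO (adjusted p = 1.23e-07). Its relatives Ebf1 (1.75 ± 0.20) and Ebf3 (2.60 ± 0.17) also rose in WT and Ebf4 (-2.80 ± 0.27) fell. Nefh, the heavy neurofilament subunit of large axons, was at 55.2 to 89.3 CPM in input WT and 217, 252 and 308 CPM in TRAP WT, and rose by 1.91 ± 0.15 (adjusted p = 7.33e-08). The other neurofilament genes rose less by point estimate, Nefl by 1.08 ± 0.14, Ina by 1.11 ± 0.13 and Nefm by 0.82 ± 0.21. In RefSeq, 7 of the 10 genes (all but Aldoc, Hspb1 and Sphk1) share part of their annotated span with another gene, from 84 bases (Kctd12 with Mir5130) to 65701 bases (Ebf2 with a long noncoding RNA), and Nefh shares 745 bases with the coding gene Ap1b1. These overlaps are of whole spans, introns included, and the overlap of exons is not given here. The counting was not stated to use strand, so whether the overlaps touched the counts is not known.

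Hspb1, a small heat shock protein, was at 18.6, 29.6 and 9.9 CPM in TRAP WT beside 4.0 to 6.8 CPM in input WT. It was at 23.0, 24.2, 20.2 and 21.9 CPM in TRAP KO. It rose by 1.90 ± 0.31 in WT (adjusted p = 6.95e-05) and by 1.79 ± 0.32 in KO (adjusted p = 1.57e-04), and with transcript length offsets the WT value was 1.04. Its relative Hspb3 rose by 4.08 ± 0.16 in WT, and Hspb8 (-1.99 ± 0.31) and Cryab (-1.88 ± 0.14) fell.

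Abat, which breaks down GABA, was at 214, 237, 229 and 243 CPM in input WT and 309, 271 and 464 CPM in TRAP WT. It rose by 0.61 ± 0.16 in WT (adjusted p = 0.00300) but was at 0.30 ± 0.16 in KO (adjusted p = 0.108), with every TRAP library above every input library in both genotypes. With library totals the values were -0.21 in WT and -0.44 in KO, the latter called lower (edgeR, adjusted p = 0.0178). Other settings called Abat higher in KO. These were quality weights (0.21, limma, adjusted p = 0.0315) and, chosen after seeing the data, length offsets (0.71, edgeR, adjusted p = 9.24e-04). Gad1, which makes GABA, rose by 1.58 ± 0.13 in WT and Gad2 by 0.57 ± 0.15.

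Gap43, a protein of growth cones and axon terminals, went the other way. It was at 299, 274, 260.0 and 249.5 CPM in input WT and 63.3, 64.2 and 21.7 CPM in TRAP WT, and at 269.6, 312 and 271 CPM in input KO and 53.5, 65.1, 68.4 and 33.4 CPM in TRAP KO. It fell by 2.48 on the log2 scale (SE 0.32, adjusted p = 7.84e-06) in WT and by 2.31 (SE 0.29, adjusted p = 7.94e-06) in KO. Markers of several other cell types fell over ranges that hold this value: log2 fold changes in WT were -3.03 to -1.84 for 8 granule cell markers, -2.66 to -0.99 for astroglia, -3.19 to -1.52 for inhibitory interneurons, -2.61 to -1.04 for oligodendrocytes and -2.71 to -1.72 for microglia. Further lists are given as sums in input WT and TRAP WT. These were 670 to 827 and 57.4 to 330 CPM for unipolar brush and cerebellar nuclei neurons, and 18.6 to 25.9 and 7.8 to 8.9 CPM for endothelium. Choroid plexus sums overlapped, at 11.8 to 398 and 114 to 202 CPM. The cells that Gap43 RNA in input came from were not tested. Of 4 other growth cone proteins, 1 rose in TRAP WT (Basp1, 1.09 ± 0.40) and 2 fell, the lowest being Marcksl1 (-2.13 ± 0.26). Among all genes tested, 37% rose and 38.5% fell in this comparison, 75.5% in either direction.

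**Figure D2:**
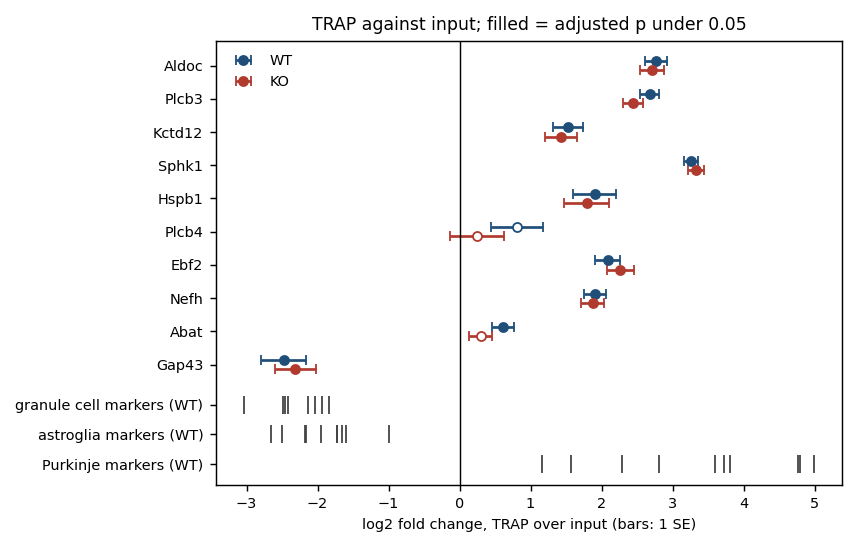
log2 fold change of TRAP over input in WT (blue) and KO (red) for the 10 stripe genes, with bars of 1 SE and filled points for an adjusted p under 0.05; grey ticks are single marker genes of granule cells, astroglia and Purkinje cells in WT. The zebrin-positive genes lie between 1.43 and 3.33, and the zebrin-negative Ebf2 and Nefh between 1.88 and 2.26. Plcb4 is open in both genotypes, and Gap43 lies within the range of both the granule cell and the astroglia markers.

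Levels of different genes were compared per kilobase of the principal transcript. In TRAP WT, Aldoc was at 3190 ± 667 CPM per kilobase (SD, n = 3), and next came Kctd12 at 112 ± 33.2. Abat (75.1 ± 22.1), Nefh (64.8 ± 11.5), Plcb3 (62.1 ± 11.9) and Plcb4 (56.2 ± 44.1) followed, and neighbours in this order did not differ beyond their SD. Sphk1 (44.3 ± 1.20), Gap43 (35.0 ± 17.1), Hspb1 (21.5 ± 10.9) and Ebf2 (6.94 ± 0.468) were lowest. In input WT the order was different: Aldoc at 470 ± 49.9, Gap43 at 190.5 ± 14.95, Abat at 49.8 ± 2.75, Kctd12 at 39.3 ± 2.74 and Plcb4 at 32.2 ± 1.94 CPM per kilobase. Nefh (17.7 ± 4.02), Plcb3 (9.89 ± 0.526), Hspb1 (5.74 ± 1.30), Sphk1 (4.67 ± 0.354) and Ebf2 (1.68 ± 0.401) were lower there. The zebrin-positive Plcb3 was thus below Plcb4 in whole cerebellum in every WT library and above it in 2 of 3 TRAP WT libraries.

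Of 8 other stripe genes listed, 6 rose and 1 fell in TRAP WT, where 37% of all genes tested rose and 38.5% fell, 75.5% in either direction. Those that rose included the zebrin-positive glutamate transporter gene Slc1a6 (2.48 ± 0.18) and Mtss1 (1.74 ± 0.12). Ncs1 was at -0.08 ± 0.17 and Tox2 fell by 1.41 on the log2 scale (adjusted p = 0.0210).

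The genotype comparison asked whether loss of Astn2 shifts the stripe genes. On Purkinje cell ribosomes none of the 10 genes passed: 0 of 10 were called in the 7 TRAP libraries, where 0.00707% of 14145 genes were, and at an unadjusted p under 0.05 there were also 0 of 10, where 1.5% of all genes were. DESeq2's Wald test called 0 as well. Sphk1 was the one gene with every KO library (78.5 to 83.6 CPM) above every WT library (66.3 to 69.9 CPM), a pattern shown in this direction by 1.94% of all genes tested. Its log2 fold change was 0.27 ± 0.13 and did not pass (edgeR, adjusted p = 1.00). The zebrin-positive genes ranged from 0.19 ± 0.18 (Plcb3) to that value, with Aldoc at 0.22 ± 0.19 and Kctd12 at 0.27 ± 0.28. Among zebrin-negative genes, Ebf2 was at 0.31 ± 0.19, Nefh at -0.08 ± 0.16 and Plcb4 at -0.15 ± 0.47. Hspb1 (0.20 ± 0.33), Gap43 (0.11 ± 0.38) and Abat (-0.12 ± 0.22) had standard errors larger than their differences. The summed Purkinje cell markers were 70840 to 80143 CPM in TRAP KO and 78376 to 86696 CPM in TRAP WT. Granule cell markers summed to 684 to 1297 and 886 to 1206 CPM, and astroglial markers to 344 to 640 and 396 to 496 CPM. The part of capture purity in the genotype differences was not tested. Of 8 other stripe genes, 0 were called; Prkcd, a protein kinase C of the Purkinje cell, was at 0.70 and had groups that did not overlap, with an adjusted p of 1.00.

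**Figure D3:**
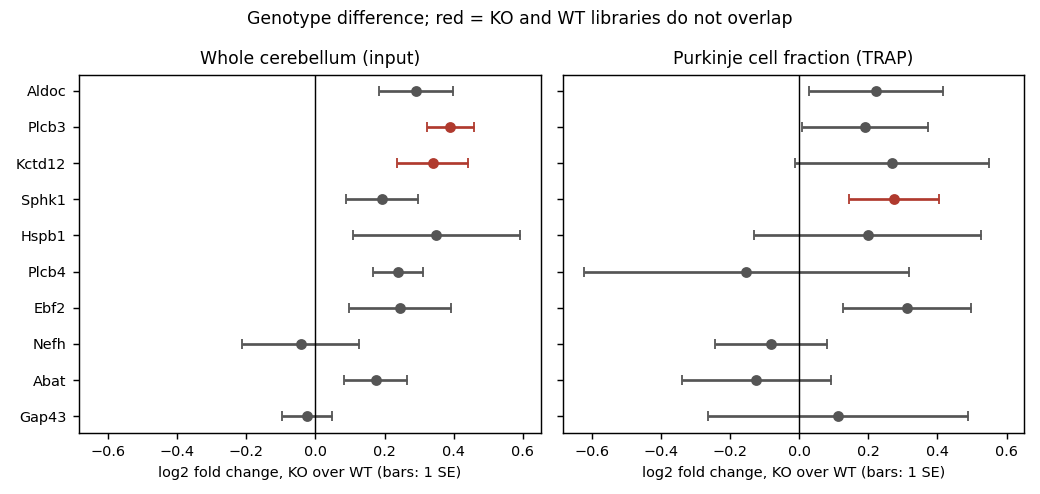
log2 fold change of KO over WT for the 10 genes in input (left) and TRAP (right), with bars of 1 SE; red marks genes whose KO and WT libraries do not overlap. In input Plcb3 and Kctd12 are red and in TRAP Sphk1 is, and no gene passed the adjusted threshold in either fraction.

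In whole cerebellum 0 of 10 were called, where 0.0188% of 15997 genes were. At an unadjusted p under 0.05, 4 of 10 were higher and 0 lower, where 6.24% of all genes were higher and 7.5% lower. These were Plcb3 (0.39 ± 0.07), Kctd12 (0.34 ± 0.10), Aldoc (0.29 ± 0.11) and Plcb4 (0.24 ± 0.07), with adjusted p from 0.136 to 0.304 in edgeR's test. Plcb3 and Kctd12 had every KO library above every WT library, as 7.78% of all genes did in that direction. Plcb3 was called by DESeq2's Wald test (adjusted p = 0.00166) and without input KO 2 (adjusted p = 0.0277), settings that called 292 and 158 genes in place of 3. These were 2 of 17 alternatives. In edgeR's test Plcb3 was at 0.29 without the sex covariate (adjusted p = 0.349) and 0.29 with the replicate block (adjusted p = 0.506). Without input KO 3 it was at 0.28 (edgeR, adjusted p = 0.801). With single libraries left out, Kctd12 ranged from 0.13 (without input KO 3) to 0.54 (without input WT 1), Plcb3 from 0.28 to 0.50, Aldoc from 0.20 to 0.39 and Plcb4 from 0.21 to 0.28. The remaining genes ranged from -0.04 ± 0.17 (Nefh) to 0.35 ± 0.24 (Hspb1). The summed Purkinje cell markers were 6263 to 7224 CPM in input KO and 5903 to 6333 CPM in input WT, and those of Bergmann glia and astrocytes 1649 to 1887 and 1400 to 1989 CPM. The 5 endothelial markers, each with a lower estimate in KO, summed to 11.6 to 18.2 CPM in input KO and 18.6 to 25.9 CPM in input WT. Neither the endothelial nor the glial list had a gene called, and at an unadjusted p under 0.05 there were 3 of 5 endothelial markers lower and 2 of 10 glial markers higher in KO. The Purkinje cell markers are given as a sum only. Choroid plexus markers summed to 10.4 to 1163 CPM in input KO and 11.8 to 398 CPM in input WT. Oligodendrocyte markers summed to 5158 to 6193 CPM in input KO and 5587 to 7589 CPM in input WT. For granule cell markers the sums were 4690 to 4996 CPM in input KO and 4764 to 4935 CPM in input WT. The part of these cell types in the differences was not tested. The labels do not say that each library is a separate animal, so a p-value measures the spread between these libraries.

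The interaction of genotype and fraction called 0 of 10 genes, as 0% of all 16042 genes were, and 0 of 10 passed an unadjusted p under 0.05, where 2.68% did. Estimates ranged from -0.56 ± 0.53 (Plcb4) to 0.18 ± 0.25 (Ebf2), each with an adjusted p of 0.9991. The genotype differences in input and TRAP were thus not shown to differ.

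A stripe balance was formed for each library as the mean log2(CPM + 1) of the 4 zebrin-positive genes minus that of the 3 zebrin-negative genes, and is given as a description with no test. It was 1.08 ± 0.27 (SD, n = 4) in input WT and 1.29 ± 0.05 (SD, n = 3) in input KO. In TRAP it was 2.11 ± 0.33 (SD, n = 3) in WT and 2.29 ± 0.11 (SD, n = 4) in KO. KO minus WT was 0.22 in input, beside a pooled SD of 0.21, and 0.18 in TRAP, beside a pooled SD of 0.23. Unlike the tests above, these differences were not adjusted for sex, which was unevenly spread between the input groups. The input WT female was at 1.31, within the input KO range of 1.24 to 1.33, and the input WT males at 1.28, 0.97 and 0.75. Without TRAP WT 3 the TRAP difference was -0.00096. With the median over members in place of the mean, the input difference was 0.45.

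TRAP WT 3 and TRAP KO 4 together lay above the other 5 TRAP libraries for 5 of the 10 genes (Plcb3, Plcb4, Kctd12, Abat and Nefh) and below them for Gap43. The highest TRAP library was 4.71 times the lowest for Plcb4, and 1.26 times for Sphk1. The same 2 libraries were also highest in the median deviation of long (at least 4000 bases, 3393 genes) minus short transcripts (under 2000 bases, 2248 genes), at 0.21 and 0.14 on the log2 scale, against -0.28 to 0.06 in the other 5 and -0.10 to 0.08 in the 7 input libraries. Plcb4 (5217 bases) was lowest in TRAP WT 2, which had the lowest length shift, and Gap43 (1420 bases) was lowest in TRAP WT 3. Ebf2, of similar length to Plcb4 (5204 bases), did not follow this order, as its lowest TRAP library was TRAP WT 3 (33.6 CPM) and its highest TRAP KO 4 (54.8 CPM). Without both libraries the genotype difference of Plcb4 in TRAP was 0.26 and that of Abat 0.02, each in the opposite direction to the values above. The part of transcript length in these differences was not tested.

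**Figure D4:**
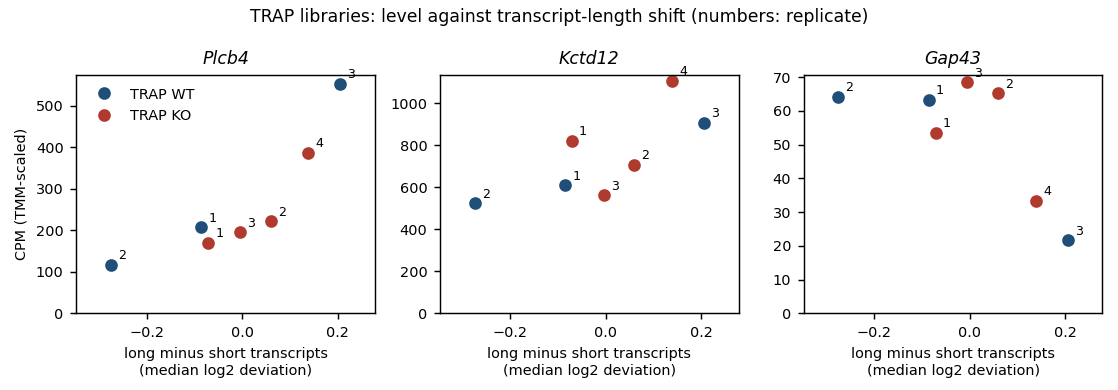
CPM (TMM-scaled) of Plcb4, Kctd12 and Gap43 in the 7 TRAP libraries against the length shift of each library (median log2 deviation of long minus short transcripts); numbers are replicates, blue is WT and red KO. TRAP WT 3 and TRAP KO 4 lie at the right, with the highest Plcb4 (554 and 387 CPM) and the lowest Gap43 (21.7 and 33.4 CPM).

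Across the 14 libraries, the genes whose log2(CPM + 1) followed Aldoc most closely, among 9632 genes with a mean of at least 10 CPM, were Ppm1b, Rnf146 and Rnd1, each with a Pearson r of 0.997. The genes closest to Plcb4 were Fam120b (r = 0.978), Mta3 (0.971) and Fbxo42 (0.971). These points share libraries and fractions, so the values only describe which profiles are alike.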

How the data were processed

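The deposited values are whole-number counts per gene with Entrez gene numbers, 1 column per library; per the submitters' processing notes, Salmon 0.8.2 and build mm10 were used, with no role given, so the counts may be rounded estimates. The annotation and strand setting are not given in the sources used here. Symbols came from RefSeq GRCm38.p6 (24045 of 24100 matched) and transcript lengths from GENCODE. The count table was tested with edgeR 4.0.16 (glmQLFit, glmQLFTest, two-sided) in R 4.3.3, with TMM factors, filterByExpr, sex as a covariate, and Benjamini-Hochberg adjustment over all genes. Genotype was fitted within each fraction (7 libraries), and fraction and interaction over all 14. Standard errors are the absolute log2 fold change over the square root of F. The method was tested on simulated counts. Alternatives were DESeq2 1.42.0 (size factors, Wald test), library totals, no filter, a mean count of at least 50, no sex covariate, a replicate block, quality weights (limma 3.58.1), each library left out, and, chosen after seeing the data, length offsets (loess span 0.3) and leaving out TRAP WT 3 and TRAP KO 4.

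The replicate numbers of input and TRAP are shared in the labels. Same-numbered WT libraries deviated together across genes (r = 0.317, 0.259 and 0.106), while in KO they did not in every pair (0.249, 0.247 and -0.140). Named genes are all 10 stripe genes in every comparison, their family relatives, the other stripe genes listed (some are not reported here), the ends of each list, and the 3 nearest genes of Aldoc and Plcb4. The members, lists and alternatives were chosen with earlier results of these data known.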

Additional observations from a re-analysis of the deposited data

How the results depend on the processing

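The counts of called stripe genes were 0 in the TRAP genotype comparison and 0 in the interaction under every alternative run, between 8 and 10 for TRAP against input in WT and between 8 and 9 in KO. In input the genotype count was 1 under DESeq2's Wald test and, over the libraries left out in turn, 0 to 1. With the median over members the input difference in stripe balance was 0.45, and with single libraries left out the TRAP difference ranged from -0.00096 to 0.32 and the input difference from 0.11 to 0.29. The replicate block changed none of these counts, and under it Plcb4 in WT was 0.55 with an adjusted p of 0.175. The block had no sex covariate. Between fractions it left out input WT 4 and TRAP KO 4, which have no partner of that number. For genotype it joined WT and KO libraries that only share a number. Deviations of such libraries correlated at -0.05, -0.21 and -0.10 in TRAP and 0.08, 0.14 and -0.01 in input.

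Some log2 fold changes changed sign. For genotype in TRAP, Plcb4 was 0.16 with quality weights, and without TRAP WT 3 and TRAP KO 4 Plcb4 was 0.26, Hspb1 -0.051, Gap43 -0.013 and Abat 0.018. With single libraries left out, Plcb4 ranged from -0.52 to 0.56, Kctd12 from -0.012 to 0.50, Hspb1 from -0.092 to 0.70, Gap43 from -0.22 to 0.51, Abat from -0.28 to 0.12 and Nefh from -0.15 to 0.017. For genotype in input, Gap43 was 0.041 without the sex covariate, 0.0100 with the replicate block and 0.029 with length offsets, and Nefh 0.0095 with quality weights; with libraries left out Gap43 ranged from -0.051 to 0.016 and Nefh from -0.16 to 0.11. For TRAP against input, library totals gave -0.0081 (Plcb4) and -0.21 (Abat) in WT and -0.49 and -0.44 in KO, where the median of all genes was -0.91 (WT) and -0.85 (KO) in place of -0.09 and -0.11. Plcb4 in WT ranged from -0.021 to 1.15 with libraries left out, and was -0.099 without both TRAP libraries. For the interaction, library totals gave Aldoc 0.030 and Nefh 0.052, no sex covariate gave Nefh 0.037, the replicate block gave Ebf2 -0.035 and Hspb1 0.16, and quality weights gave Ebf2 -0.053 and Hspb1 0.037. Without both TRAP libraries, Plcb4 was 0.11, Kctd12 0.013, Gap43 -0.068 and Nefh 0.079. With single libraries left out, the interaction of Aldoc ranged from -0.22 to 0.14, Plcb4 from -0.95 to 0.30, Kctd12 from -0.28 to 0.16, Hspb1 from -0.45 to 0.44, Gap43 from -0.21 to 0.60 and Nefh from -0.13 to 0.083. For each, the cause was not tested. No stripe gene was at or under 3 counts in any library.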
